A study of Rattus norvegicus with 24 samples.

Results

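The genes described here are those carried on the mitochondrial genome of the rat, as named in RNA sequencing tables from the nucleus accumbens (NAc) of pups at postnatal day 14. A gene was taken as a member when its name began with AY172581. or with Mt-, in either case, and 37 of the 23950 genes listed met that rule in all 24 libraries. Of the 37, 13 carry the names of the protein genes (Mt-nd1 to Mt-nd6, Mt-nd4l, Mt-cyb, Mt-co1 to Mt-co3, Mt-atp6 and Mt-atp8), and 24 are numbered AY172581 entries, AY172581.1 to AY172581.24. The tables do not say which AY172581 entry is which ribosomal or transfer RNA, so these 24 were treated as 1 class and are called by their numbers.

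Sprague Dawley dams of the F0 generation received oxycodone or saline, and NAc tissue was taken from their F1 offspring and from F2 offspring of F1 animals bred with males. Each of the 6 groups had 4 pups (n = 4), each from a different litter, total RNA was sequenced, and the deposited values are FPKM (fragments per kilobase of transcript, scaled to the fragments of the library), a level per gene length. SAL is the saline control of each generation. In IUO (in utero oxycodone), F0 females were gavaged at 10 mg/kg/day for 5 days and then at doses raised by 0.5 mg/kg/day over 10 days to 15 mg/kg/day, and dosing went on from mating until the pups were weaned. In PNO (postnatal oxycodone), F0 dams were gavaged at 15 mg/kg/day only from birth of the litter to weaning. F1 animals were not dosed themselves, so F1 IUO and F1 PNO pups met the drug through the dam, and F2 IUO and F2 PNO are named after the exposure of their F1 parent. The sex of the pups is not given. A library is named below by generation, treatment and replicate number, as in F1 SAL 1, and values are listed in the order of replicates 1 to 4, which are not known to pair libraries between groups.

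Mitochondrial DNA encodes subunits of respiratory complexes I, III and IV and of ATP synthase, together with the ribosomal and transfer RNAs that translate them, while all other mitochondrial proteins come from the nucleus. Both strands are transcribed as long precursors that are cut mostly at the transfer RNAs, so the levels of the mature RNAs depend on processing and stability as well as on transcription. Neurons draw much of their ATP from oxidative phosphorylation, and brain tissue is rich in mitochondrial RNA.

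Markers of striatal projection neurons were present in every library. The 12 genes of that list summed to FPKM of 458 to 1464, none was at 0 in all libraries, and the most abundant was Ppp1r1b, at 167 to 549. The lowest striatal sums were 458 in F2 IUO 1, 501 in F2 IUO 3 and 553 in F1 SAL 1. Markers of neighbouring regions varied more between libraries: the sums ran over 16.7 to 378 FPKM for cortical excitatory neurons (8 genes, most abundant Slc17a7, at 3.94 to 277), 27.6 to 352 for thalamus (8 genes, most abundant Tcf7l2, at 5.20 to 138) and 5.49 to 832 for hypothalamus (8 genes, most abundant Pomc, at 1.09 to 818). Choroid plexus markers, 8 genes led by Ttr, at 1.75 to 12103, summed to 5222 in F1 SAL 1, 3824 in F1 PNO 3, 8184 in F1 IUO 3, 6836 in F2 PNO 4 and 12286 in F2 IUO 1, to 998 in F1 IUO 4 and to at most 255 in the other libraries. The remaining cell lists summed to 1388 to 2767 FPKM for neurons (8 genes, most abundant Stmn2), 1001 to 1484 for astrocytes (8 genes, Aldoc) and 949.9 to 3806 for oligodendrocytes (9 genes, Mbp). They summed to 115 to 218 for microglia (7 genes, C1qb), 9.97 to 25.0 for endothelium (5 genes, Cdh5) and 13.2 to 472 for blood (5 genes, Hba-a2). None of the genes on these lists was at 0 in all 24 libraries. Y-linked genes (4 genes, most abundant Eif2s3y) summed to 24.4, 25.5, 22.7 and 19.2 in F1 SAL but to 0.730, 0, 1.88 and 0.980 in F2 SAL. They summed to 24.9, 33.7, 1.37 and 0.790 in F1 PNO, 4.59, 26.8, 1.05 and 0.1 in F1 IUO, 0, 0.160, 0 and 22.1 in F2 PNO and 0.370, 21.5, 27.0 and 26.5 in F2 IUO, so that libraries with high and with low sums were mixed in those 4 groups but not in the saline groups. Each contrast with saline thus set a mixed group against one with all sums high (F1) or near 0 (F2). The part of the Y-linked level in those contrasts was not tested.

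All 37 members were above 0 in every library. Protein gene Mt-atp6 was the most abundant of all 23950 genes in all 24 libraries, and 15 to 18 of the 20 most abundant genes of a library were mitochondrial members. The summed FPKM of all genes ran from 535866 to 766781 between libraries, that of the members from 100559 to 363455, and that of all other genes from 367736 to 455756. F1 IUO 4 had the lowest and F2 PNO 1 the highest of the first 2 of these sums. The number of reads behind the values is not in the tables, so the depth of each library is unknown. In bulk tissue, fewer cells rich in mitochondria and less mitochondrial RNA per cell cannot be told apart.

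The share of all FPKM that the members took was the single measure of mitochondrial RNA per library. It was 37.7, 40.0, 35.8 and 34.7% in F1 SAL, 44.5, 43.2, 26.6 and 37.6% in F1 PNO, and 42.2, 37.4, 30.5 and 18.8% in F1 IUO. In F2 it was 33.3, 35.4, 33.4 and 34.2% in SAL, 47.4, 42.1, 39.5 and 31.96% in PNO, and 27.9, 32.5, 33.7 and 38.1% in IUO. The libraries of each saline group lay close together, while those of the exposed groups spread to both sides of them. The mean and SD (n = 4) were 37.0 ± 2.31% in F1 SAL, 38.0 ± 8.16% in F1 PNO, 32.2 ± 10.2% in F1 IUO, 34.1 ± 0.961% in F2 SAL, 40.2 ± 6.42% in F2 PNO and 33.1 ± 4.20% in F2 IUO. F1 IUO 4 had the lowest share of the 24 and F2 PNO 1 the highest, and every pair of groups compared overlapped. In F1 PNO, F2 PNO and F2 IUO the library with the lowest share was the one with the highest choroid plexus sum, in F1 IUO the libraries with the lowest shares were replicates 4 and 3, and in F1 SAL the library with the high choroid plexus sum had the second highest share. Whether that tissue has a part in the share was not tested.

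**Figure D1:**
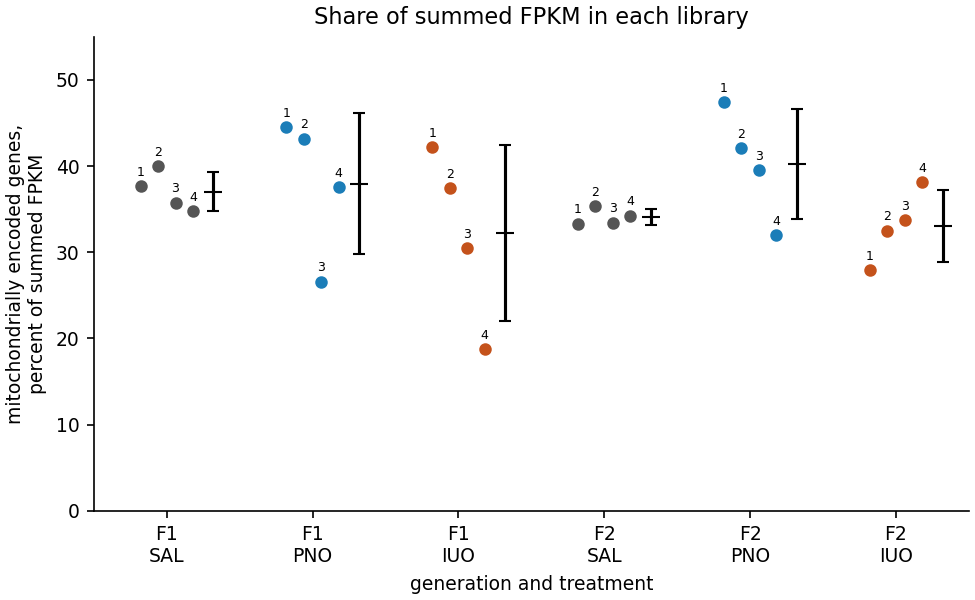
Share of the summed FPKM that the 37 mitochondrial members took in each library, in percent, by generation and treatment. Points are single libraries with their replicate numbers, and bars are the mean and SD of 4. The saline groups span 34.7 to 40.0% in F1 and 33.3 to 35.4% in F2, and F1 IUO spans 18.8 to 42.2%.

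Most of the share came from the protein genes. They took 34.4, 36.6, 33.3 and 32.5% of all FPKM in F1 SAL, 40.4, 39.2, 24.1 and 33.5% in F1 PNO, and 39.0, 34.3, 28.5 and 17.0% in F1 IUO. In F2 they took 30.9, 32.5, 30.9 and 31.0% in SAL, 41.8, 38.1, 36.0 and 29.8% in PNO, and 25.7, 29.5, 30.2 and 33.7% in IUO. The 4 libraries of F2 SAL were all below the 4 of F1 SAL, and the other groups compared overlapped. The AY172581 entries together took 3.30, 3.39, 2.45 and 2.20% in F1 SAL, 4.12, 4.00, 2.46 and 4.06% in F1 PNO, and 3.24, 3.08, 1.95 and 1.73% in F1 IUO. In F2 these entries took 2.43, 2.84, 2.53 and 3.28% in SAL, 5.56, 3.92, 3.54 and 2.16% in PNO, and 2.23, 2.97, 3.47 and 4.39% in IUO. F2 PNO 1 was the highest library for the AY172581 share and F1 IUO 4 the lowest, and the protein genes made up 88.3 to 93.7% of the members' FPKM in every library.

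FPKM is scaled by gene length, and the members are set here in order of FPKM. Whether that is also the order of RNA amounts, across protein genes and AY172581 entries above all, was not tested. Mean FPKM over the 24 libraries was 40336 for Mt-atp6, 25758 for Mt-co3, 22412 for Mt-atp8, 19511 for Mt-co1, 19294 for Mt-co2, 17730.5 for Mt-cyb and 17387 for Mt-nd1. It was 13598 for Mt-nd2, 9055 for Mt-nd3, 7210.0 for Mt-nd4l, 6906 for Mt-nd4, 5137 for Mt-nd6 and 4719 for Mt-nd5. The log2 difference within libraries (mean ± SD, n = 24) was 0.63 ± 0.17 from Mt-atp6 to Mt-co3, 0.37 ± 0.15 from Mt-nd1 to Mt-nd2 and 0.60 ± 0.24 from Mt-nd2 to Mt-nd3, each larger than its spread. Neighbours that did not differ beyond their spread were Mt-co3 and Mt-atp8 (0.26 ± 0.37), Mt-atp8 and Mt-co1 (0.14 ± 0.34), Mt-co1 and Mt-co2 (0.03 ± 0.23), Mt-co2 and Mt-cyb (0.12 ± 0.20), and Mt-cyb and Mt-nd1 (0.03 ± 0.12). The same held for Mt-nd3 and Mt-nd4l (0.37 ± 0.46), Mt-nd4l and Mt-nd4 (-0.01 ± 0.37), and Mt-nd6 and Mt-nd5 (0.08 ± 0.29). Spread here is the SD of single libraries, so these neighbours are not shown to have equal mean levels. Their named order held in 14 (Mt-nd6 and Mt-nd5) to 19 (Mt-co3 and Mt-atp8) of the 24 libraries. Among the AY172581 entries, AY172581.9 (mean FPKM 5493), AY172581.20 (5469.7) and AY172581.24 (3249.5) were the most abundant, and the former 2 lay between Mt-nd4 and Mt-nd6. The mean FPKM of the 24 entries ran from 4.06 for AY172581.13 to 5493 for AY172581.9, with 5 at 1000 or more, 10 from 100 to 1000 and 9 under 100. The coefficient of variation over the 24 libraries was 18.6 to 36.3% for the protein genes (median 23.9%) and 27.6 to 159% for the AY172581 entries (median 40.0%). Mt-atp8 and Mt-atp6 share bases in mammals, as do Mt-nd4l and Mt-nd4, and how fragments over the shared bases were divided is not given.

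Complex I takes electrons from NADH, and 7 of its subunits are mitochondrially encoded: Mt-nd1 to Mt-nd6 and Mt-nd4l, all parts of its membrane arm. Mt-nd1 had FPKM in F1 of 16786, 17957, 21317 and 19235 in F1 SAL, 21048, 18715, 11095 and 16145 in F1 PNO, and 21867, 19294, 15772 and 6680.0 in F1 IUO. In F2, Mt-nd1 had 19269, 20024, 15211 and 16257 in F2 SAL, 23828, 17716, 18819 and 16545 in F2 PNO, and 13399.6, 15066, 15209 and 20035 in F2 IUO. F1 IUO held both the second highest value of the 24 and the lowest, and the groups compared overlapped. Mt-nd2 had FPKM in F1 of 12784, 14907, 13626 and 14679.6 in F1 SAL, 16209, 15522, 7605 and 11896 in F1 PNO, and 18046, 15471, 12353 and 5327 in F1 IUO. In F2, Mt-nd2 had 12648, 15058, 9919.8 and 12354 in F2 SAL, 24697, 15807, 15198 and 12314 in F2 PNO, and 11281, 11649, 11398 and 15597 in F2 IUO. F1 IUO 4 and F1 PNO 3 were the lowest libraries, F2 PNO 1 was the highest, and the groups compared overlapped. Mt-nd3 had FPKM in F1 of 8316, 7285, 9154 and 7806 in F1 SAL, 10781, 10264, 6348 and 10005 in F1 PNO, and 11733, 8624, 6696 and 4448 in F1 IUO. In F2, Mt-nd3 had 8689.8, 12522, 5721 and 6995 in F2 SAL, 19168, 9894, 9427 and 6396 in F2 PNO, and 7649.7, 7759.6, 8587 and 13055 in F2 IUO. The highest values were in F2 PNO 1, F2 IUO 4 and F2 SAL 2, from all 3 treatments of F2, and the groups compared overlapped. Mt-nd4l had FPKM in F1 of 9220.1, 8632, 7059 and 5868 in F1 SAL, 12117, 10639, 3829 and 8376 in F1 PNO, and 9024, 7889, 4495 and 2102 in F1 IUO. In F2, Mt-nd4l had 6103, 7338, 7395 and 6163 in F2 SAL, 10015, 12447, 8429.7 and 5835 in F2 PNO, and 3669, 4711, 5931 and 5755 in F2 IUO. All 4 F2 IUO libraries were below the 4 of F2 SAL, and the other groups compared overlapped.

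Mt-nd4 had FPKM in F1 of 7458, 7433, 6481 and 5977 in F1 SAL, 9381, 7961, 4769 and 7695 in F1 PNO, and 8341, 6991, 5821 and 3669 in F1 IUO. In F2, Mt-nd4 had 5931, 5470.1, 5993 and 5893 in F2 SAL, 8821, 8466, 9140.1 and 5775 in F2 PNO, and 6057, 6849, 7032 and 8334 in F2 IUO. Here all 4 F2 IUO libraries were above the 4 of F2 SAL, by a narrow gap, and the other groups compared overlapped. Mt-nd5 had FPKM in F1 of 5096, 5621, 4594 and 4722 in F1 SAL, 6276, 5661, 3375 and 5277 in F1 PNO, and 5836, 5411, 4217 and 2522 in F1 IUO. In F2, Mt-nd5 had 4011, 3991, 4315 and 4294 in F2 SAL, 5408, 6071, 5538 and 4207 in F2 PNO, and 3588, 4203, 4459.8 and 4566 in F2 IUO. All 4 F2 SAL libraries were below the 4 of F1 SAL, and the other groups compared overlapped. Mt-nd6, the protein gene read from the other strand than the remaining 12, had FPKM in F1 of 4433, 4950.1, 4449.7 and 4182 in F1 SAL, 7239.5, 6388, 3565 and 6074 in F1 PNO, and 5520.4, 5186, 3246 and 2043 in F1 IUO. In F2, Mt-nd6 had 4148, 4638, 4118 and 4815 in F2 SAL, 10124, 6721, 6365 and 3549.7 in F2 PNO, and 4457, 5639, 4964 and 6478 in F2 IUO. The 8 saline libraries lay within 4118 to 4950.1, F2 PNO 1 was the highest of the 24, and the groups compared overlapped. As a part of the FPKM of all protein genes, Mt-nd6 made up 2.10, 2.16, 2.15 and 2.11% in F1 SAL, 2.68, 2.42, 2.502 and 2.81% in F1 PNO, and 2.23, 2.44, 1.92 and 2.24% in F1 IUO. In F2 that part was 2.14, 2.14, 2.24 and 2.44% in SAL, 3.16, 2.68, 2.67 and 1.95% in PNO, and 2.75, 3.09, 2.60 and 2.71% in IUO. The 4 F1 PNO libraries were above the 4 of F1 SAL and the 4 F2 IUO libraries above the 4 of F2 SAL and the 4 of F1 IUO in this part, a measure that was chosen after its values were seen and was not tested.

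Cytochrome b, from Mt-cyb, is the mitochondrially encoded subunit of complex III, which passes electrons from ubiquinol to cytochrome c. Mt-cyb had FPKM in F1 of 17937, 21382, 17360.3 and 17093 in F1 SAL, 22496, 20441, 10357 and 18078 in F1 PNO, and 22143, 19414, 15522 and 7466 in F1 IUO. In F2, Mt-cyb had 17763, 18369, 15347 and 16546 in F2 SAL, 26135, 19866, 19126 and 16679 in F2 PNO, and 13401, 15014, 16502 and 21096 in F2 IUO. F1 IUO 4 and F1 PNO 3 were the lowest libraries and F2 PNO 1 the highest, and the groups compared overlapped. Complex IV reduces oxygen, and Mt-co1 to Mt-co3 encode its core, with the haem and copper sites in the products of Mt-co1 and Mt-co2. Mt-co1 had FPKM in F1 of 21446, 23264, 20797 and 19385 in F1 SAL, 23801, 23622, 14933 and 18721 in F1 PNO, and 22247, 21019.7, 17768 and 10664 in F1 IUO. In F2, Mt-co1 had 19429, 19796, 17807 and 18357 in F2 SAL, 30274, 23238, 19412 and 17187 in F2 PNO, and 13466, 14747, 18127 and 18753 in F2 IUO. F2 IUO 1 and 2 were below all F2 SAL libraries while F2 IUO 3 and 4 were within their range. Mt-co2 had FPKM in F1 of 19853, 21160.3, 16032 and 15771 in F1 SAL, 24319, 25341, 13988 and 18306 in F1 PNO, and 21133, 17374, 15008 and 9973 in F1 IUO. In F2, Mt-co2 had 14829.9, 19209, 15315 and 17262 in F2 SAL, 34091, 22504, 23352 and 16213 in F2 PNO, and 16411, 19260.0, 20208 and 26149 in F2 IUO. F2 PNO 1 was the highest library, followed by F2 IUO 4, and the groups compared overlapped. Mt-co3 had FPKM in F1 of 28213, 27056, 27511 and 25321 in F1 SAL, 30439.6, 31415, 20095 and 28869 in F1 PNO, and 25514, 24135, 20712 and 12392 in F1 IUO. In F2, Mt-co3 had 23418, 29927, 23550.0 and 25105 in F2 SAL, 34642, 28371, 25945 and 25219 in F2 PNO, and 21319.9, 22835, 22674 and 33506 in F2 IUO. F2 IUO 4 stood apart from the other 3 libraries of its group, and the groups compared overlapped.

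Mt-atp6 and Mt-atp8 encode membrane subunits of ATP synthase, the product of Mt-atp6 being part of the proton channel. Mt-atp6 had FPKM in F1 of 38511, 43550.4, 35926 and 37079 in F1 SAL, 56642, 51794, 28749.8 and 39514 in F1 PNO, and 45446, 39415, 33676 and 18075 in F1 IUO. In F2, Mt-atp6 had 34768, 36395, 33567 and 38526 in F2 SAL, 65715, 46242, 49015 and 35722 in F2 PNO, and 34065, 40182, 36508 and 48969.8 in F2 IUO. F2 PNO 1 was again the highest and F1 IUO 4 the lowest, and the groups compared overlapped. Mt-atp8 had FPKM in F1 of 21225, 26118, 23055 and 20662 in F1 SAL, 29882, 35945, 13785 and 27071 in F1 PNO, and 31189.5, 22149, 13558 and 5938 in F1 IUO. In F2, Mt-atp8 had 23004, 23967, 25427 and 24558 in F2 SAL, 27942, 33412, 28381 and 16851 in F2 PNO, and 13368, 14427, 19134 and 16842 in F2 IUO. All 4 F2 IUO libraries were below the 4 of F2 SAL, 3 of the 4 F2 PNO libraries were above them, and the other groups compared overlapped. F1 IUO 4 was the lowest of the 24 libraries for all 13 protein genes, and F2 PNO 1 was the highest for 9 of them.

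**Figure D2:**
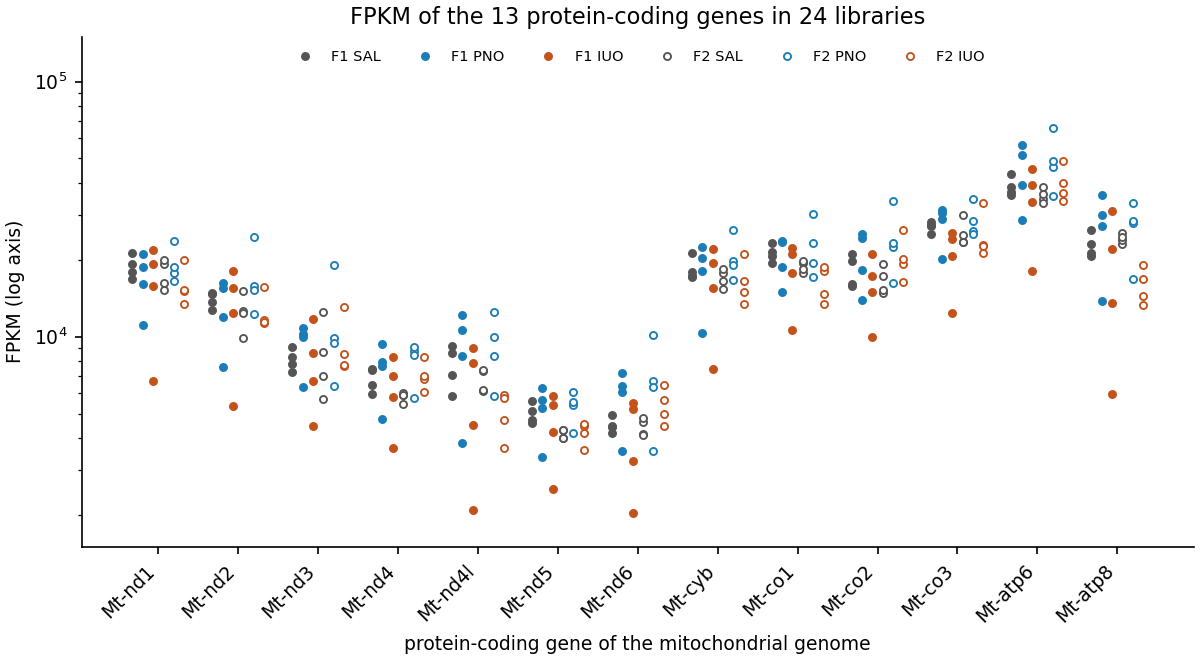
FPKM of the 13 mitochondrial protein genes in each library, on a log axis. Points are single libraries, coloured by treatment, filled for F1 and open for F2. F1 IUO 4 is the lowest point of each of the 13 genes, from 18075 for Mt-atp6 to 2043 for Mt-nd6.

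The 24 AY172581 entries cover the remaining mitochondrial genes of the tables. AY172581.9 had FPKM in F1 of 4729.8, 5416, 4493 and 4315 in F1 SAL, 6332, 6553, 4263 and 6178 in F1 PNO, and 5163, 5779, 4197 and 3045 in F1 IUO. In F2, AY172581.9 had 5059, 6229, 3982 and 5650.1 in F2 SAL, 12066, 6245, 6369 and 4045 in F2 PNO, and 3575, 4422, 5680.2 and 8049.9 in F2 IUO. F2 PNO 1 was the highest library and F1 IUO 4 the lowest. AY172581.20 had FPKM in F1 of 4913, 4419.8, 4267 and 3526 in F1 SAL, 9002, 7057, 3623 and 7759 in F1 PNO, and 6417, 5814, 2594 and 2433 in F1 IUO. In F2, AY172581.20 had 4433, 5207, 3467 and 4347 in F2 SAL, 11157, 7016, 7014 and 2421 in F2 PNO, and 4146, 6149, 5949.8 and 8141 in F2 IUO. F2 PNO 1 and F1 PNO 1 were the highest libraries, and F2 PNO 4 and F1 IUO 4 the lowest. AY172581.24 had FPKM in F1 of 2998, 3557, 2789.8 and 2417 in F1 SAL, 4027, 4105, 2499.8 and 3799.5 in F1 PNO, and 4007, 3641, 2608 and 2167 in F1 IUO. In F2, AY172581.24 had 2809, 3116, 2521 and 3538 in F2 SAL, 5996, 3378, 3748 and 2034 in F2 PNO, and 1774, 2705, 3189 and 4565 in F2 IUO. F2 PNO 1 was the highest and F2 IUO 1 the lowest. The groups compared overlapped for all 3 of these entries.

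AY172581.7 and AY172581.10 fell into a high and a low range that cut across the groups. AY172581.7 had FPKM in F1 of 1337, 1569, 141 and 107 in F1 SAL, 1268, 1850.0, 916 and 1667 in F1 PNO, and 277, 143, 68.5 and 63.9 in F1 IUO. In F2, AY172581.7 had 106, 187, 761 and 1607 in F2 SAL, 2998, 1757, 1198 and 1033 in F2 PNO, and 943, 867, 1558 and 2481 in F2 IUO. F1 IUO, F1 SAL 3 and 4, and F2 SAL 1 and 2 were in the low range, and both PNO groups and F2 IUO were in the high range. AY172581.10 had FPKM in F1 of 1599.7, 1821, 202 and 166 in F1 SAL, 1601, 2092, 1055 and 1895 in F1 PNO, and 415, 196, 98.4 and 76.4 in F1 IUO. In F2, AY172581.10 had 178, 311, 937 and 1847 in F2 SAL, 3582, 2009, 1417 and 1252 in F2 PNO, and 1088, 1061, 1813 and 2797 in F2 IUO. The same libraries were low, so F1 IUO lay below F1 PNO and below F2 IUO without overlap, while each saline group held high and low libraries. The labels give no batch or date that would split the saline libraries in this way.

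AY172581.18 had FPKM in F1 of 1089, 1091, 371 and 251 in F1 SAL, 1365, 1154, 406 and 1119 in F1 PNO, and 566, 281, 146 and 50.3 in F1 IUO. In F2, AY172581.18 had 326, 621, 758 and 1016 in F2 SAL, 2011, 1350.3, 822 and 535.69 in F2 PNO, and 471, 519.7, 837 and 1055 in F2 IUO. This entry followed a similar order, with F1 IUO 2 to 4 and F1 SAL 4 the lowest. AY172581.22 had FPKM in F1 of 586, 589, 187 and 113 in F1 SAL, 741, 646, 206 and 616 in F1 PNO, and 269, 134, 64.1 and 14.1 in F1 IUO. In F2, AY172581.22 had 153, 305, 409 and 535 in F2 SAL, 1062, 769, 420.4 and 257 in F2 PNO, and 238, 243, 422 and 545 in F2 IUO. Its order was nearly that of AY172581.18. AY172581.6 had FPKM in F1 of 79.0, 63.6, 89.7 and 91.2 in F1 SAL, 52.1, 85.6, 40.0 and 33.8 in F1 PNO, and 45.01, 25.7, 24.6 and 29.9 in F1 IUO. In F2, AY172581.6 had 31.3, 169, 9.94 and 54.3 in F2 SAL, 215, 91.1, 72.9 and 73.3 in F2 PNO, and 52.2, 52.9, 76.0 and 128 in F2 IUO. The 4 F1 IUO libraries were below the 4 of F1 SAL and of F2 IUO, and F2 SAL spread from the lowest to near the highest of the 24. AY172581.1 had FPKM in F1 of 77.9, 80.6, 92.2 and 66.6 in F1 SAL, 80.9, 77.1, 50.4 and 84.2 in F1 PNO, and 119, 93.1, 68.2 and 49.5 in F1 IUO. In F2, AY172581.1 had 66.5, 79.8, 74.4 and 95.2 in F2 SAL, 94.2, 79.5, 90.3 and 49.6 in F2 PNO, and 121, 116, 117 and 142 in F2 IUO. The 4 F2 IUO libraries were above the 4 of F2 SAL and the 4 of F2 PNO.

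AY172581.15 had FPKM in F1 of 605, 797, 789 and 837 in F1 SAL, 796, 790.1, 267 and 646 in F1 PNO, and 665, 779, 493 and 122 in F1 IUO. In F2, AY172581.15 had 728, 805, 646 and 691 in F2 SAL, 949.8, 863, 549.5 and 439 in F2 PNO, and 357, 354, 469 and 522 in F2 IUO. The 4 F2 IUO libraries were below the 4 of F2 SAL. AY172581.17 had FPKM in F1 of 337, 359, 191 and 149.97 in F1 SAL, 405, 403, 201 and 349.7 in F1 PNO, and 388, 454, 251 and 262 in F1 IUO. In F2, AY172581.17 had 154, 145, 214 and 199.7 in F2 SAL, 398, 326, 325 and 124 in F2 PNO, and 222, 328, 322 and 525 in F2 IUO. The 4 F2 IUO libraries were above the 4 of F2 SAL. AY172581.23 had FPKM in F1 of 434, 457, 253 and 189.7 in F1 SAL, 521, 513, 256 and 458 in F1 PNO, and 513, 556, 313 and 326 in F1 IUO. In F2, AY172581.23 had 188, 187, 273 and 276 in F2 SAL, 522, 412, 441 and 167 in F2 PNO, and 295, 448, 421 and 674 in F2 IUO. Those of F2 IUO were again above those of F2 SAL, and the order was nearly that of AY172581.17.

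AY172581.4 had FPKM in F1 of 117, 114, 113 and 103 in F1 SAL, 168, 148, 52.7 and 63.2 in F1 PNO, and 131, 76.5, 27.3 and 41.0 in F1 IUO. In F2, AY172581.4 had 112, 165, 76.2 and 92.4 in F2 SAL, 215, 140.4, 75.2 and 96.0 in F2 PNO, and 77.7, 104, 83.6 and 156 in F2 IUO. F1 IUO 2, 3 and 4 were below all of F1 SAL, and F1 IUO 1 was above them. AY172581.19 had FPKM in F1 of 75.4, 10.9, 44.8 and 34.5 in F1 SAL, 10.9, 14.4, 7.39 and 8.46 in F1 PNO, and 186, 8.30, 9.25 and 3.12 in F1 IUO. In F2, AY172581.19 had 32.7, 21.2, 3.80 and 18.9 in F2 SAL, 8.29, 8.95, 7.07 and 14.3 in F2 PNO, and 8.97, 20.4, 13.3 and 4.23 in F2 IUO. F1 IUO 1 was far above all other libraries, and 1 of the F1 SAL libraries was within the range of F1 PNO. AY172581.11 had FPKM in F1 of 54.0, 73.9, 23.4 and 20.2 in F1 SAL, 75.9, 77.4, 43.1 and 67.9 in F1 PNO, and 44.1, 78.6, 37.6 and 40.3 in F1 IUO. In F2, AY172581.11 had 29.9, 15.3, 34.9 and 27.1 in F2 SAL, 19.1, 61.4, 50.5 and 17.1 in F2 PNO, and 22.2, 41.6, 45.2 and 21.6 in F2 IUO. F2 PNO 1 and 4 were below all of F1 PNO, and F2 PNO 2 and 3 were not. For the 9 other entries, as for AY172581.9, AY172581.20 and AY172581.24, no comparison passed an unadjusted p under 0.05, and the mean FPKM of those 9 ran from 4.06 for AY172581.13 to 384 for AY172581.14. Of all 24 entries, 9 varied over 10-fold between the highest and the lowest library, against 2 of the 13 protein genes that varied over 5-fold.

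**Figure D3:**
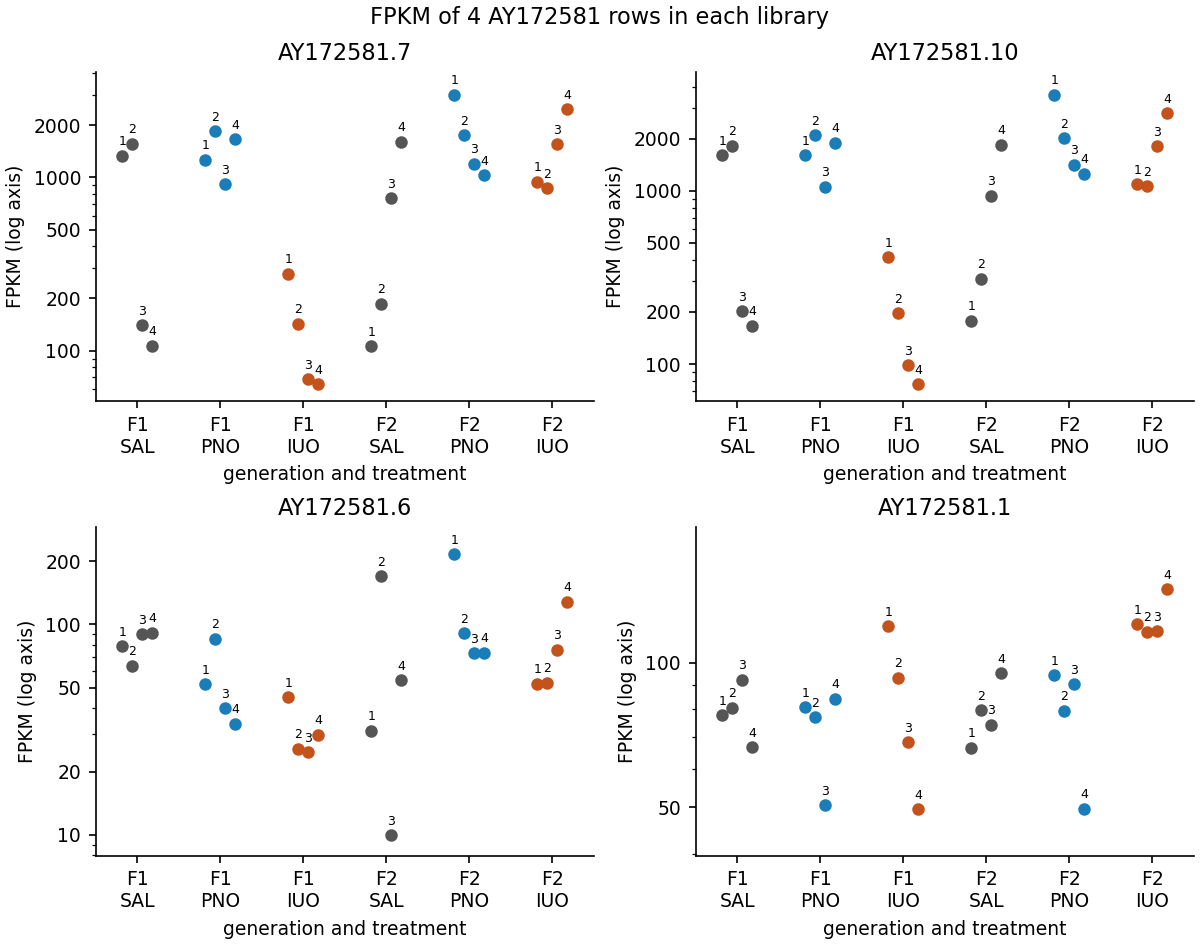
FPKM of AY172581.7, AY172581.10, AY172581.6 and AY172581.1 in each library by generation and treatment, on log axes. Points are single libraries with their replicate numbers. The 4 F1 IUO libraries have AY172581.7 at 63.9 to 277 FPKM, below the 4 of F1 PNO at 916 to 1850.0, and the saline groups hold libraries in both ranges.

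Members moved together across libraries to differing degrees. Over the 24 libraries, the Pearson r of log2 FPKM was 0.614 to 0.959 (median 0.838) for the 78 pairs of protein genes, lowest for Mt-nd5 with Mt-nd3 and highest for Mt-nd2 with Mt-cyb. For the 276 pairs of AY172581 entries it ran from -0.370 to 0.998 (median 0.432). The closest pairs of entries were AY172581.18 with AY172581.22 (r 0.998), AY172581.7 with AY172581.10 (0.998) and AY172581.17 with AY172581.23 (0.997). With the group means removed these were 0.996, 0.995 and 0.996, so each of these pairs stands for close to a single measurement. Counts of members below take both entries of such a pair as separate members. All these correlations are given as a description.

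The comparisons share libraries: the 2 contrasts with saline in each generation use the same saline libraries, and every group is in 3 of the 9 comparisons, so their results are not independent. Differences in share are in percentage points of FPKM, the named group minus the other, with an exact permutation test of 4 against 4 libraries, which cannot give a p under 0.0286, and p is adjusted over the 9 comparisons. Differences of single genes are log2 fold changes of FPKM fitted by limma over all genes, with p adjusted over all genes tested. Full separation of the 4 libraries of one group from the 4 of the other was seen for 1 of 37 members against 2.54% of all genes tested in F1 IUO against F1 SAL, 2 against 10.5% in F1 IUO against F1 PNO, 7 against 5.11% in F2 IUO against F2 SAL, 1 against 4.74% in F2 IUO against F2 PNO, 1 against 4.98% in F2 SAL against F1 SAL and 3 against 10.7% in F2 IUO against F1 IUO. The other comparisons had 0 of 37, against 8.27% in F1 PNO against F1 SAL, 7.01% in F2 PNO against F2 SAL and 3.34% in F2 PNO against F1 PNO, where chance gives 2.86%. Marker lists with 2 or more genes past an unadjusted p under 0.05 in the same direction are given for each comparison. The part of those tissues and cells, and of the Y-linked level, in the mitochondrial values was not tested.

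Pups of dams dosed before mating, through gestation and while nursing were compared with saline pups of F1. The share was lower on average in F1 IUO, its libraries ranged more widely than those of F1 SAL, and the difference was within the spread between replicates. It was -4.83 percentage points (SE 5.22; exact two-sided permutation p 0.457, adjusted 0.823), with F1 IUO 3 and 4 below all of F1 SAL and F1 IUO 1 above them. Without 1 library at a time it was between -8.16 and -0.348, the latter without F1 IUO 4. limma tested 17380 genes, all 37 members among them, and 0 of the 37 passed an adjusted p under 0.05, against 0% of all genes tested. At an unadjusted p under 0.05, 0 of 37 were higher against 1.93% of all genes, and 3 of 37 were lower against 1.97%. The 3 were AY172581.6 with -1.39 (SE 0.198, adjusted p 0.387), AY172581.4 with -0.95 (SE 0.402, adjusted p 0.999) and AY172581.22 with -1.95 (SE 0.866, adjusted p 0.999). With upper-quartile rescaling 0 were higher and 4 lower, against 158 and 680 of 17349 genes. With the total of all other genes these were 0 and 1, against 297 and 509 of 18096. Without the libraries with high choroid plexus sums they were 1 and 1, against 277 and 294 of 16648. Without F1 IUO 1, 1 member was called at an adjusted p under 0.05, a count given without the share of all genes called in that fit, so nothing is drawn from it. AY172581.4 no longer passed the unadjusted threshold without F1 SAL 1, 2, 3 or 4, or F1 IUO 3 or 4 (log2 fold change -0.99 to -0.59). AY172581.22 no longer passed the unadjusted threshold without F1 SAL 1, 2 or 3, or F1 IUO 3 or 4 (log2 fold change -2.16 to -1.14). The median log2 fold change of the protein genes was -0.28 (range -0.57 to -0.13, 0 of 13 above 0), beside 0.01 for all genes tested and -0.52 for the AY172581 entries (6 of 24 above 0). With each library rescaled to its upper quartile, the median of all genes moved to -0.11 and that of the protein genes to -0.40. Lists of nuclear-encoded subunits had medians of -0.02 for complex I (17 of 37 higher), -0.03 for complex III (4 of 10 higher), -0.05 for complex IV (3 of 11 higher) and 0.00 for ATP synthase (8 of 15 higher), and 0 of them passed either an adjusted or an unadjusted p under 0.05 in limma. With rescaling to the total of all other genes, 3 of complex I were lower at an unadjusted p under 0.05. Hypothalamus markers were higher in F1 IUO (7 of 7 tested, median 1.815), as were blood markers (4 of 4, median 1.71), while both Y-linked genes tested were lower (median -3.16).

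Pups of dams dosed only after birth were compared with the same saline pups. The mean share of F1 PNO was close to that of F1 SAL, with libraries on both sides of it. The difference was 0.906 percentage points (SE 4.24; exact two-sided permutation p 0.886, adjusted 0.886), with F1 PNO 1 and 2 above all of F1 SAL and F1 PNO 3 below them. It changed sign without F1 PNO 1 (-1.28) or F1 PNO 2 (-0.829). limma tested 17494 genes, all 37 members among them, and 0 of the 37 passed an adjusted p under 0.05, against 0% of all genes tested. Higher at an unadjusted p under 0.05 were 0 of 37 against 6.11% of all genes, and lower were 2 of 37 against 7.83%. The 2 were AY172581.19 with -1.75 (SE 0.504, adjusted p 0.238) and AY172581.6 with -0.69 (SE 0.261, adjusted p 0.304). AY172581.6 no longer passed the unadjusted threshold without F1 SAL 3 or 4, or F1 PNO 3 or 4 (log2 fold change -0.64 to -0.51). For the protein genes the median log2 fold change was 0.08 (range -0.20 to 0.32, 9 of 13 above 0), beside -0.05 for all genes tested and 0.28 for the AY172581 entries (14 of 24 above 0). Rescaled to the total of all genes that are not members, 7 of the 13 were above 0. Without F1 SAL 1 and F1 PNO 3, the libraries with high choroid plexus sums, the share differed by 4.91 percentage points (exact permutation p 0.200), 12 of the 13 were above 0 with a median of 0.33, and 15 of 37 members were higher and 2 lower at an unadjusted p under 0.05, against 1343 and 2280 of 16936 genes, with 0 members at an adjusted p under 0.05. The nuclear-encoded subunit lists had medians of 0.14 for complex I (28 of 37 higher), -0.03 for complex III (4 of 10 higher), 0.11 for complex IV (9 of 11 higher) and 0.18 for ATP synthase (13 of 15 higher), and limma called 0 at an adjusted p under 0.05, with 9 of 37 for complex I, 4 of 10 for complex III, 3 of 11 for complex IV and 5 of 15 for ATP synthase higher at an unadjusted p under 0.05. Thalamus markers moved in this comparison too (8 of 8 higher, median 1.496), with sums of 194, 117, 43.8 and 29.2 FPKM in F1 SAL and 144, 352, 173 and 248 in F1 PNO. Lower were striatal markers (0 of 12 higher, median -0.43), microglia markers (2 of 7 higher, median -0.29) and hypothalamus markers (2 of 7 higher, median -0.20).

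The pair of exposure windows was compared in F1. This was the comparison in which mitochondrial members passed the adjusted threshold, and both were AY172581 entries that form a near-identical pair. The share differed by -5.74 percentage points (SE 6.52; exact two-sided permutation p 0.400, adjusted 0.823), with 1 F1 IUO library below all of F1 PNO and none above. Without 1 library at a time it was between -9.53 (without F1 PNO 3) and -1.25 (without F1 IUO 4). limma tested 17306 genes, all 37 members among them, and 2 of the 37 passed an adjusted p under 0.05, against 0.133% of all genes tested. With p left unadjusted, 0 of 37 were higher and 5 of 37 were lower at a p under 0.05, against 10.1% and 6.41% of all genes. With upper-quartile rescaling these were 0 and 6, against 922 and 1931 of 17272 genes. AY172581.7 had -3.58 (SE 0.445, adjusted p 0.0468) and AY172581.10 had -3.35 (SE 0.478, adjusted p 0.0468), with 4 of 4 F1 IUO libraries below all of F1 PNO for each, where 10.5% of all genes separated the groups. Both calls stood close to the threshold: leaving out any of the 4 F1 PNO libraries, or F1 IUO 2, 3 or 4, gave 0 called members, and leaving out F1 IUO 1 gave 2. These counts are given without the share of all genes called in each omission. Pseudocount 1 left AY172581.7 alone called, and neither was called without the filter (adjusted p 0.0556 and 0.0657), with upper-quartile rescaling (0.0752 and 0.0809), in 1 fit of all 24 libraries (0.131 and 0.128) or without the libraries with high choroid plexus sums (0.171 for both). The genes called among all tested fell as well, from 23 to 7, 5, 3, 4 and 0 in these fits, in that order. A block by replicate number, although these numbers are not known to pair the libraries, also left neither called (adjusted p 0.0800 and 0.108), with 2 of all 17306 genes called. Over the 8 omissions of 1 library the log2 fold change stayed within -4.00 and -3.30 for AY172581.7 and within -3.82 and -3.01 for AY172581.10. The other 3 at an unadjusted p were AY172581.18 with -2.31 (SE 0.677, adjusted p 0.158), AY172581.22 with -2.71 (SE 0.803, adjusted p 0.162) and AY172581.6 with -0.70 (SE 0.290, adjusted p 0.270). AY172581.6 no longer passed the unadjusted threshold without F1 PNO 1 or 2, or F1 IUO 2, 3 or 4 (log2 fold change -0.70 to -0.44). Protein genes had a median log2 fold change of -0.31 (range -0.71 to -0.08, 0 of 13 above 0), beside 0.03 for all genes tested and -0.40 for the AY172581 entries (5 of 24 above 0). With upper-quartile rescaling the median of all genes moved to -0.08 and that of the protein genes to -0.43. Among nuclear-encoded subunits the medians were -0.16 for complex I (7 of 37 higher), -0.11 for complex III (3 of 10 higher), -0.20 for complex IV (1 of 11 higher) and -0.16 for ATP synthase (3 of 15 higher), with 0 called by limma at an adjusted p under 0.05 and 6, 2, 4 and 5 lower at an unadjusted p under 0.05. Among all listed genes Avp of the hypothalamus list passed the threshold here (log2 fold change 3.80, SE 0.541, adjusted p 0.0468), all 12 striatal markers were higher in F1 IUO (median 0.63) and 7 of 8 thalamus markers lower (median -1.53). Also higher were microglia markers (7 of 7, median 0.46) and hypothalamus markers (5 of 7, median 3.39). With rescaling to the total of all other genes, C1qb of the microglia list was also called (log2 fold change 0.59, SE 0.0856, adjusted p 0.0453).

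In F2, the lineage of the in utero exposure was compared with saline. The share was nearly the same in both groups, while 7 of 37 members separated the groups without overlap, some in each direction, as did 5.11% of the genes tested. The share differed by -1.02 percentage points (SE 2.16; exact two-sided permutation p 0.657, adjusted 0.882), with F2 IUO 1 and 2 below all of F2 SAL and F2 IUO 4 above them. It changed sign without F2 IUO 1, to 0.700. limma tested 17097 genes, all 37 members among them, and 0 of the 37 passed an adjusted p under 0.05, against 0% of all genes tested. At an unadjusted p under 0.05, 4 of 37 were higher against 3.52% of all genes, and 1 of 37 was lower against 4.97%. Under each of the rescalings 3 were higher and 3 lower, against 322 and 1358 of 17023 genes with the upper quartile and 412 and 1092 of 17590 with the total of all other genes. Higher in F2 IUO were AY172581.1 with 0.66 (SE 0.126, adjusted p 0.251), AY172581.23 with 0.95 (SE 0.244, adjusted p 0.413), AY172581.17 with 0.92 (SE 0.242, adjusted p 0.426) and AY172581.7 with 1.75 (SE 0.772, adjusted p 0.586). Lower was AY172581.15 with -0.77 (SE 0.152, adjusted p 0.251). Of the protein genes whose libraries did not overlap, Mt-nd4 had 0.27 (SE 0.194, adjusted p 0.690), Mt-nd4l -0.45 (SE 0.221, adjusted p 0.605) and Mt-atp8 -0.62 (SE 0.284, adjusted p 0.591), none past the threshold. AY172581.7 no longer passed the unadjusted threshold without F2 SAL 1 or 2, or F2 IUO 1, 2, 3 or 4 (log2 fold change 1.12 to 1.96). The median log2 fold change of the protein genes was 0.00 (range -0.62 to 0.29, 7 of 13 above 0), beside -0.08 for all genes tested and 0.19 for the AY172581 entries (15 of 24 above 0). That median became -0.08 with upper-quartile rescaling and -0.05 when libraries were rescaled to the total of all genes that are not members, with 5 of 13 above 0 in both. Medians of the nuclear-encoded subunit lists were 0.16 for complex I (31 of 37 higher), 0.10 for complex III (8 of 10 higher), 0.15 for complex IV (9 of 11 higher) and 0.14 for ATP synthase (13 of 15 higher), with 0 called by limma at an adjusted p under 0.05 and, at an unadjusted p under 0.05, 1, 0, 1 and 1 higher and 1 of complex I lower. With rescaling to the total of all other genes, these medians were 0.10, 0.04, 0.09 and 0.09. All 12 striatal markers were lower in F2 IUO (median -0.51), as were all 7 microglia markers (median -0.30), while cortical markers (6 of 8, median 0.58), blood markers (3 of 4, median 1.38) and both Y-linked genes tested (median 3.34) were higher.

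The lineage of the postnatal exposure was compared with the same F2 saline libraries. The share was higher in 3 of the 4 F2 PNO libraries than in all of F2 SAL, and lower in the remaining library, F2 PNO 4. The difference was 6.15 percentage points (SE 3.25; exact two-sided permutation p 0.143, adjusted 0.429). Without F2 PNO 4, which had a high choroid plexus sum, it was 8.90 percentage points with an exact permutation p of 0.0286, the smallest that 3 against 4 libraries can give, and over all 8 such omissions it was between 3.76 and 8.90. limma tested 17367 genes, all 37 members among them, and 0 of the 37 passed an adjusted p under 0.05, against 0.00576% of all genes tested. Higher at an unadjusted p under 0.05 were 2 of 37 against 3.97% of all genes, and lower were 0 of 37 against 6.83%. Under both rescalings the counts were also 2 and 0, with 1192 higher and 769 lower of 17351 genes (upper quartile) and 994 and 847 of 18034 (total of all other genes). Without rescaling the 2 were AY172581.7 with 2.02 (SE 0.783, adjusted p 0.423) and AY172581.10 with 1.76 (SE 0.681, adjusted p 0.421). AY172581.7 no longer passed the unadjusted threshold without F2 SAL 1 or 2, or F2 PNO 1 or 2 (log2 fold change 1.39 to 1.97). AY172581.10 no longer passed the unadjusted threshold without F2 SAL 1 or 2, or F2 PNO 1 or 2 (log2 fold change 1.22 to 1.74). For the protein genes the median log2 fold change was 0.35 (range 0.09 to 0.50, 13 of 13 above 0), beside -0.08 for all genes tested and 0.27 for the AY172581 entries (16 of 24 above 0). All 13 were above 0 under both rescalings as well. Without F2 PNO 4 the median of the protein genes was 0.55, beside -0.15 for all genes, and 12 of 37 members were higher and 0 lower at an unadjusted p under 0.05, against 886 and 1856 of 17053 genes, with 0 at an adjusted p under 0.05. Nuclear-encoded subunits had medians of 0.05 for complex I (22 of 37 higher), -0.04 for complex III (5 of 10 higher), -0.05 for complex IV (4 of 11 higher) and 0.12 for ATP synthase (9 of 15 higher), with 0 called by limma at an adjusted p under 0.05, and, at an unadjusted p under 0.05, 1 of complex I higher and 4, 2, 1 and 1 lower. With rescaling to the total of all other genes, the medians were 0.10, 0.02, 0.01 and 0.18, those of complexes III and IV thus turning sign, with 1, 1, 0 and 0 higher and 2, 1, 0 and 1 lower at an unadjusted p under 0.05. Neuron markers were lower (1 of 8 higher, median -0.40), as were microglia markers (0 of 7, median -0.32), and blood markers were higher (4 of 4, median 1.499).

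The exposure windows were also compared in F2. The share was lower in F2 IUO on average, and 1 F2 IUO library was below all of F2 PNO. The difference was -7.17 percentage points (SE 3.84; exact two-sided permutation p 0.143, adjusted 0.429). Without 1 library at a time it was between -9.93 and -4.78, with an exact permutation p of 0.0571 to 0.257. limma tested 17090 genes, all 37 members among them, and 0 of the 37 passed an adjusted p under 0.05, against 0% of all genes tested. With p left unadjusted, 1 of 37 was higher and 2 of 37 were lower at a p under 0.05, against 4.59% and 2.48% of all genes. With upper-quartile rescaling 1 and 2 of 37 stood against 262 and 1225 of 17073 genes, and with the total of all other genes 1 and 3 against 388 and 863 of 17637, so the excess of lower members over all genes depended on the scaling. AY172581.1 was higher with 0.70 (SE 0.197, adjusted p 0.482), and Mt-nd4l was lower with -0.84 (SE 0.289, adjusted p 0.617). Mt-nd4l was the sole protein gene past an unadjusted p under 0.05 in any comparison under the main settings, with all libraries and no rescaling. AY172581.15 was lower with -0.67 (SE 0.258, adjusted p 0.644). Mt-nd4l no longer passed the unadjusted threshold without F2 IUO 1 (log2 fold change -0.70). AY172581.15 no longer passed the unadjusted threshold without F2 PNO 1 or 2, or F2 IUO 1 or 2 (log2 fold change -0.59 to -0.50). Protein genes had a median log2 fold change of -0.28 (range -0.84 to -0.17, 0 of 13 above 0), beside -0.01 for all genes tested and -0.19 for the AY172581 entries (8 of 24 above 0). The median of all genes moved to -0.17 with upper-quartile rescaling and -0.13 with rescaling to the total of all other genes, and that of the protein genes to -0.45 and -0.39. The nuclear-encoded subunit lists had medians of 0.15 for complex I (30 of 37 higher), 0.14 for complex III (8 of 10 higher), 0.19 for complex IV (7 of 11 higher) and 0.07 for ATP synthase (10 of 15 higher), with 0 called by limma at an adjusted p under 0.05 and 5, 2, 1 and 2 higher at an unadjusted p under 0.05. With rescaling to the total of all other genes, these medians were 0.04, 0.03, 0.08 and -0.04, with 2, 2, 0 and 1 higher at an unadjusted p under 0.05. Neuron markers were higher in F2 IUO (7 of 8, median 0.47). Striatal markers had a median of -0.39 (0 of 12 above 0) and cortical markers 1.26 (7 of 8 above 0), with 0 past an unadjusted p under 0.05.

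The saline groups of the generations were compared to give the background of the comparisons between generations. The protein genes took a smaller share in each F2 SAL library than in each F1 SAL library, by a narrow margin (at most 32.5322% against at least 32.5366%), and no gene among the members passed even the unadjusted threshold. The share of all members differed by -2.97 percentage points (SE 1.25; exact two-sided permutation p 0.0571, adjusted 0.429), with 3 of 4 F2 SAL libraries below all of F1 SAL, and without F1 SAL 4 it differed by -3.73 with an exact permutation p of 0.0286. The share of the protein genes differed by -2.90 percentage points (SE 0.974; exact two-sided permutation p 0.0286, adjusted 0.257). Leaving out any F2 SAL library, F1 SAL 1 or F1 SAL 2 gave an exact permutation p of 0.0571 for the protein share, which is the next value that 3 against 4 libraries can take. With the AY172581 entries left out of the total, the groups overlapped, and the difference was -3.02 percentage points with an exact permutation p of 0.0571. limma tested 17497 genes, all 37 members among them, and 0 of the 37 passed an adjusted p under 0.05, against 0.0343% of all genes tested. At an unadjusted p under 0.05, 0 of 37 were higher against 3.78% of all genes, and 0 of 37 were lower against 4.69%. Both rescalings left 0 and 0 members, against 448 and 1143 of 17454 genes and 302 and 1572 of 18218. The median log2 fold change of the protein genes was -0.11 (range -0.27 to 0.10, 2 of 13 above 0), beside -0.02 for all genes tested and -0.07 for the AY172581 entries (8 of 24 above 0). With upper-quartile rescaling it was -0.16 with 1 of 13 above 0, and with rescaling to the total of all other genes it was -0.21 with 0 of 13 above 0. Mt-nd5, whose libraries did not overlap, had -0.27 (SE 0.166, adjusted p 0.677). Among nuclear-encoded subunits the medians were 0.16 for complex I (32 of 37 higher), 0.10 for complex III (9 of 10 higher), 0.24 for complex IV (11 of 11 higher) and 0.14 for ATP synthase (11 of 15 higher), with 0 called by limma at an adjusted p under 0.05 and, at an unadjusted p under 0.05, 10, 1, 2 and 2 higher and 2 of complex I lower. Rescaled to the total of all other genes, 4, 1, 0 and 1 were higher and 2 of complex I lower, and the medians were 0.07, 0.00, 0.14 and 0.04. The Y-linked gene Kdm5d was called here at -4.56 (SE 0.465, adjusted p 0.0137), while 0 Y-linked genes were called after rescaling to the total of all other genes (2 lower at an unadjusted p under 0.05), and with high Y-linked sums in all 4 F1 SAL libraries and sums near 0 in all 4 F2 SAL libraries, generation and Y-linked level cannot be told apart.

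Between generations, the PNO groups differed little in share. F2 PNO 1 was above all of F1 PNO and the other libraries were mixed. The difference was 2.28 percentage points (SE 5.19; exact two-sided permutation p 0.686, adjusted 0.882), and it changed sign without F2 PNO 1 (-0.115) or F1 PNO 3 (-1.52). limma tested 17370 genes, all 37 members among them, and 0 of the 37 passed an adjusted p under 0.05, against 0.0288% of all genes tested. Higher at an unadjusted p under 0.05 was 1 of 37 against 2.13% of all genes, and lower was 1 of 37 against 2.63%. AY172581.6 was higher with 1.03 (SE 0.388, adjusted p 0.948) and AY172581.11 lower with -1.02 (SE 0.420, adjusted p 0.948). Under both rescalings 1 member was higher and 0 lower, so AY172581.11 no longer passed. All genes stood at 529 and 399 of 17370 with the upper quartile, and at 411 and 511 of 18118 with the total of all other genes. AY172581.6 no longer passed the unadjusted threshold without F1 PNO 3 or 4 (log2 fold change 0.84 to 0.93). AY172581.11 no longer passed the unadjusted threshold without F1 PNO 1, 2 or 4, or F2 PNO 1 or 4 (log2 fold change -0.99 to -0.72). For the protein genes the median log2 fold change was 0.15 (range 0.04 to 0.42, 13 of 13 above 0), beside -0.06 for all genes tested and 0.04 for the AY172581 entries (12 of 24 above 0). Without F1 PNO 3 and F2 PNO 4, the libraries with high choroid plexus sums, 9 of 13 were above 0 and the median was 0.11. Medians of the nuclear-encoded subunit lists were 0.07 for complex I (26 of 37 higher), 0.00 for complex III (4 of 10 higher), 0.07 for complex IV (10 of 11 higher) and 0.00 for ATP synthase (7 of 15 higher), and 0 passed an adjusted or an unadjusted p under 0.05 in limma. All 8 thalamus markers (median -1.13) and all 8 neuron markers (median -0.23) were lower in F2 PNO, and striatal markers (10 of 12, median 0.26) and microglia markers (5 of 7, median 0.26) were higher.

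Between the IUO groups, the members past the unadjusted threshold were all higher in F2. Their shares overlapped widely. The difference in share was 0.841 percentage points (SE 5.51; exact two-sided permutation p 0.886, adjusted 0.886), and it changed sign without F2 IUO 4 (-0.844) or F1 IUO 4 (-3.64). limma tested 16916 genes, all 37 members among them, and 0 of the 37 passed an adjusted p under 0.05, against 0% of all genes tested. With p left unadjusted, 6 of 37 were higher and 0 of 37 were lower at a p under 0.05, against 5.35% and 9.65% of all genes. They were AY172581.7 with 3.54 (SE 0.485, adjusted p 0.222), AY172581.10 with 3.31 (SE 0.510, adjusted p 0.222), AY172581.6 with 1.24 (SE 0.296, adjusted p 0.222), AY172581.22 with 2.16 (SE 0.750, adjusted p 0.250), AY172581.18 with 1.88 (SE 0.625, adjusted p 0.244) and AY172581.1 with 0.66 (SE 0.237, adjusted p 0.260). AY172581.7 with AY172581.10, and AY172581.18 with AY172581.22, are near-identical pairs, so the 6 hold fewer separate measurements. With rescaling to the total of all other genes, 5 members were higher and 0 lower, against 434 and 2614 of 17366 genes. For AY172581.7, AY172581.10 and AY172581.6 all 4 F2 IUO libraries were above the 4 of F1 IUO, where 10.7% of all genes separated the groups. Without F1 IUO 1 there were 2 members at an adjusted p under 0.05, a count given without the share of all genes called in that fit, so nothing is drawn from it. AY172581.1 no longer passed the unadjusted threshold without F1 IUO 3, or F2 IUO 4 (log2 fold change 0.59 to 0.59). Protein genes had a median log2 fold change of 0.12 (range -0.10 to 0.52, 10 of 13 above 0), beside -0.09 for all genes tested and 0.37 for the AY172581 entries (18 of 24 above 0). With rescaling to the total of all genes that are not members, 8 of 13 were above 0, and the median moved to 0.01 for the protein genes and to -0.20 for all genes. Nuclear-encoded subunits had medians of 0.35 for complex I (36 of 37 higher), 0.30 for complex III (9 of 10 higher), 0.43 for complex IV (10 of 11 higher) and 0.32 for ATP synthase (14 of 15 higher). Of these, 0 were called by limma at an adjusted p under 0.05, and 23 of 37, 4 of 10, 9 of 11 and 7 of 15 were higher at an unadjusted p under 0.05. With rescaling to the total of all other genes these counts fell to 10, 2, 3 and 4, with 1 of complex III lower, and the medians were 0.24, 0.19, 0.32 and 0.21. In that fit 434 of 17366 genes were higher and 2614 lower at an unadjusted p under 0.05, where 905 and 1632 of 16916 were before. Mitochondrial ribosomal proteins, also nuclear-encoded, had a median of 0.30 (70 of 77 higher) and cytosolic ribosomal proteins 0.24 (76 of 86 higher), with 28 of each higher and 1 and 2 lower at an unadjusted p under 0.05 and 0 at an adjusted p under 0.05. Rescaled, these were 0.18 (66 of 77 higher) and 0.13 (66 of 86), with 9 and 10 higher and 1 and 3 lower at an unadjusted p under 0.05. Beside them stood the same 434 higher and 2614 lower of 17366 genes. All 12 striatal markers (median -0.65) and all 4 endothelium markers tested (median -0.42) were lower in F2 IUO, and neuron markers (6 of 8, median 0.16) and cortical markers (6 of 8, median 0.31) were higher.

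Whether a difference between treatments itself differed between F2 and F1 was tested as an interaction, which uses all 16 libraries of the pair of treatments. In the pairs with saline, Y-linked sums were all high in F1 SAL and near 0 in F2 SAL, and their part was not tested. The F2 difference in share minus the F1 difference was 3.81 percentage points for IUO against SAL (exact two-sided permutation p 0.581), 5.24 percentage points for PNO against SAL (exact two-sided permutation p 0.358) and -1.43 percentage points for IUO against PNO (exact two-sided permutation p 0.863), each over 4900 assignments within generations. For IUO against SAL, limma gave 0 of 37 at an adjusted p under 0.05 against 0% of 18437 genes, and at an unadjusted p under 0.05 4 more positive against 1.62% and 0 more negative against 3.53%. The 4 were AY172581.10 with an interaction of 3.31 (SE 1.20, adjusted p 0.924), AY172581.7 with 3.63 (SE 1.31, adjusted p 0.924), AY172581.6 with 2.20 (SE 0.816, adjusted p 0.924) and AY172581.1 with 0.67 (SE 0.291, adjusted p 0.924). For PNO against SAL it gave 0 of 37 at an adjusted p under 0.05 against 0% of 18608 genes, and at an unadjusted p under 0.05 1 more positive against 1.61% and 0 more negative against 2.45%, the positive member being AY172581.6 with 1.99 (SE 0.865, adjusted p 0.9998). For IUO against PNO it gave 0 of 37 at an adjusted p under 0.05 against 0% of 18405 genes, and at an unadjusted p under 0.05 2 more positive against 3.04% and 0 more negative against 2.72%, these being AY172581.7 with 3.32 (SE 0.656, adjusted p 0.618) and AY172581.10 with 3.07 (SE 0.675, adjusted p 0.618). Without 1 library at a time, AY172581.1 for IUO against SAL no longer passed the unadjusted threshold in 7 of 16 omissions (0.45 to 0.87 over all 16) and AY172581.6 for PNO against SAL in 8 of 16 (1.31 to 2.66), while the other 5 passed in all 16. The median interaction of the protein genes was 0.26 for IUO against SAL (12 of 13 above 0), 0.32 for PNO against SAL (12 of 13) and 0.00 for IUO against PNO (7 of 13), and with rescaling to the total of all other genes 12, 13 and 6 of 13 were above 0.

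The nuclear genes that build and run the same complexes were followed as lists. The 37 complex I genes summed to 4738 to 8195 FPKM (most abundant Ndufa3), the 10 of complex III to 2001 to 3487 (Uqcr11), the 11 of complex IV to 5194 to 9554 (Cox6a1) and the 15 of ATP synthase to 5887 to 9786 (Atp5me). The lowest of these sums were in F1 IUO 1 or F1 IUO 4 and the highest in F2 IUO 4. The mean log2 level of each list, with libraries rescaled to the total of all genes that are not members, was set beside the mitochondrial share over the 24 libraries, and again without the 2 libraries with the most extreme share, F1 IUO 4 and F2 PNO 1. The Pearson r was 0.492 (Pearson r 0.169 without those 2, Spearman rho of all libraries 0.370) for complex I, 0.399 (Pearson r 0.147 without those 2, Spearman rho of all libraries 0.317) for complex III, 0.582 (Pearson r 0.244 without those 2, Spearman rho of all libraries 0.398) for complex IV and 0.570 (Pearson r 0.330 without those 2, Spearman rho of all libraries 0.472) for ATP synthase, so each Pearson r was smaller without those 2 libraries. The 21 genes of mitochondrial DNA transcription and copying summed to 166 to 195 FPKM, with Lonp1, at 28.8 to 47.5 the most abundant, and the 28 genes of mitochondrial RNA processing and stability to 266 to 337, with Fastk, at 33.3 to 56.2. Across the 9 comparisons their medians stayed within -0.15 to 0.10 and -0.09 to 0.04, or -0.26 to 0.15 and -0.10 to -0.02 with rescaling to the total of all other genes. limma called 0 of them at an adjusted p under 0.05, with at most 4 of 21 and 4 of 28 higher and at most 3 and 3 lower at an unadjusted p under 0.05 in a comparison, and with rescaling at most 4 and 5 higher and 4 and 4 lower. With the share, they had a Pearson r of 0.297 (Pearson r 0.633 without those 2, Spearman rho of all libraries 0.420) and 0.158 (Pearson r 0.315 without those 2, Spearman rho of all libraries 0.236). Of the other lists, those past 0.3 in either direction were these: hypothalamus markers had -0.403 (Pearson r -0.371 without those 2, Spearman rho of all libraries -0.435), cortical markers -0.379 (Pearson r -0.211 without those 2, Spearman rho of all libraries -0.335), striatal markers 0.326 (Pearson r 0.390 without those 2, Spearman rho of all libraries 0.259), choroid plexus markers -0.485 (Pearson r -0.506 without those 2, Spearman rho of all libraries -0.379), mitochondrial ribosomal proteins 0.611 (Pearson r 0.211 without those 2, Spearman rho of all libraries 0.471) and cytosolic ribosomal proteins 0.399 (Pearson r 0.0263 without those 2, Spearman rho of all libraries 0.247), out of 20 lists looked at. Mrpl17 led the mitochondrial and Rpl41 the cytosolic ribosomal list. Their medians without rescaling ran over -0.17 to 0.30 and -0.03 to 0.25 in the 9 comparisons. At an unadjusted p under 0.05, 21 of 78 mitochondrial ones were higher in F1 PNO against F1 SAL (6.11% of all genes). Lower were 20 of 78 in F1 IUO against F1 PNO (6.41%). Of the cytosolic ones 15 of 86 were higher in F2 PNO against F1 PNO (2.13%). In these comparisons 1, 0 and 1 went the other way.

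Genes outside the members were ranked by how closely their log2 FPKM followed the mean log2 FPKM of the 13 protein genes over the 24 libraries, among 9044 genes with a mean FPKM of at least 5. The 10 highest by Pearson r were Ap1s2 (0.847), AABR07046778.1 (0.844), Rpl39 (0.774), Rnf139 (0.764), AABR07044509.1 (0.764), Picalm (0.763), Gtf2a2 (0.763), Vps29 (0.749), Sike1 (0.745) and AABR07002945.2 (0.740). The 10 lowest were Psmd2 (-0.919), Dctn1 (-0.917), Eef2 (-0.915), Sult4a1 (-0.914), Nelfb (-0.912), Elac2 (-0.902), Mcrs1 (-0.900), Usp20 (-0.897), Eid2 (-0.896) and Sbf1 (-0.896). With the group means removed, the r of the highest gene, Ap1s2, was 0.845 and that of the lowest, Psmd2, -0.906. All values are FPKM as deposited, and the part of the scale of each library in these correlations was not tested.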

How the data were processed

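NAc RNA of 24 rat pups was read as FPKM per gene, the unit the authors deposited, with 1 table a library and 4 libraries in each of 6 groups. The submitters' processing notes name HISAT2, SAMtools and StringTie without versions, and give no step that rescales FPKM between libraries. The genome build and gene positions are not given in the sources used, and neither is the depth of any library, which leaves counting error and the lowest detectable level without a value.

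Python 3.11.15 with pandas 2.3.3, numpy 2.4.6 and scipy 1.17.1 computed the sums, the shares and the exact permutation tests, two-sided over 70 assignments, with Benjamini-Hochberg adjustment over the 9 comparisons. limma 3.58.1 in R 4.3.3 (lmFit, and eBayes with a trend) was fitted to log2(FPKM + 0.1) for the 8 libraries of a comparison, or the 16 of an interaction, over genes that reached FPKM 0.1 in 4 or more of them, and p was adjusted over all genes tested. Figures were drawn with matplotlib 3.10.9.

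The protein genes were named with every library's value. The plan named the ribosomal RNA genes in the same way and treated ribosomal and transfer RNAs as separate classes, but the tables do not tell them apart, so the AY172581 entries formed 1 class, and the 3 most abundant and those past an unadjusted p under 0.05 were given in full. For lists, the counts, the median, the gene with the largest mean FPKM and genes past an adjusted p under 0.05 were given. For likeness, the 10 highest and 10 lowest genes with a mean FPKM of at least 5 were named. Lists covered nuclear respiratory subunits, mitochondrial DNA and RNA upkeep, mitochondrial and cytosolic ribosomal proteins, Y-linked genes, and markers of regions and cells. A list of 6 nuclear-retained RNAs had 0 genes in the tables by those names and gave no value. The members and lists were chosen with earlier results of these data known.

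The alternatives were another pseudocount (1), no filter, a filter at FPKM 1, upper-quartile rescaling, rescaling to the total of all other genes, 1 fit of all 24 libraries, a replicate block, other forms of the share, and leaving out each library. After seeing the data, leaving out together the 5 libraries with a choroid plexus sum above 3000 was added.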

Additional observations from a re-analysis of the deposited data

Results flagged for a closer look

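Within groups of 4 libraries, a value far from the other 3 was looked for in 240 groups, 40 measures in each of 6 groups, by the critical gap over range of Dixon for 4 values. Chance gives about 1 in 20 groups, or 12, and 11 were found, 8 high and 3 low, so their number is near what chance gives.

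The library far above the others of its group was F2 SAL 2 for the share of the protein genes (32.5%), F2 IUO 4 for AY172581.1 (FPKM 142), Mt-co3 (33506) and Mt-nd2 (15597), F2 PNO 1 for AY172581.6 (215), F1 IUO 2 for AY172581.11 (78.6), F1 SAL 3 for AY172581.13 (6.91) and F1 IUO 1 for AY172581.19 (186). F2 IUO 4 accounts for 3 of these 8. The library far below the others was F1 PNO 3 for the share of the AY172581 entries (2.46%) and for AY172581.9 (FPKM 4263), and F2 PNO 3 for AY172581.5 (77.4).

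For IUO against SAL, PNO against SAL and IUO against PNO, no measure had all libraries of the first group on one side of the second in F1 and on the opposite side in F2, among 120 contrasts looked at.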

How the results depend on the processing

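The mitochondrial share kept its direction and its side of p 0.05 in 106 of 117 alternatives over the 9 comparisons, the share of the protein genes in 70 of 90, and the share of the AY172581 entries in 79 of 90. Part of these counts was fixed in advance. The replicate block keeps the difference and cannot give a sign-flip p under 0.125. An exact permutation of 3 against 3 libraries cannot give a p under 0.1. The total without small non-coding RNA entries, the protein genes alone and the log2 ratio changed none of the 9 comparisons of the mitochondrial share. The log2 fold changes of members past an unadjusted p under 0.05 in a comparison or an interaction kept direction and side in 488 of 581 alternatives, and in the other 93 they kept direction and no longer passed. The number of members called was unchanged in 129 of 144 alternatives, and the 3 interactions had 0 called in all 57.

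Leaving out 1 library at a time moved the difference in mitochondrial share, in percentage points, from -1.277 to 4.698 in F1 PNO against F1 SAL, -9.53 to -1.254 in F1 IUO against F1 PNO, -2.708 to 0.6995 in F2 IUO against F2 SAL, 3.758 to 8.905 in F2 PNO against F2 SAL, -3.735 to -1.982 in F2 SAL against F1 SAL, -1.516 to 5.033 in F2 PNO against F1 PNO and -3.641 to 4.175 in F2 IUO against F1 IUO. For the protein genes the ranges were -1.951 to 3.473 in F1 PNO against F1 SAL, -1.252 to 4.355 in F2 PNO against F1 PNO and -4.153 to 3.16 in F2 IUO against F1 IUO. Without a change of sign they were -7.582 to -0.2685 in F1 IUO against F1 SAL and -7.968 to -0.3473 in F1 IUO against F1 PNO. In F2 IUO against F2 SAL the range was -2.829 to -0.1401, the former without F2 IUO 4 (exact permutation p 0.0286). For the AY172581 entries they were -1.072 to 0.05773 in F2 IUO against F2 PNO, -0.2738 to 0.1205 in F2 SAL against F1 SAL and -0.4526 to 0.6776 in F2 PNO against F1 PNO. Members called ran from 0 to 1 in F1 IUO against F1 SAL, 0 to 2 in F1 IUO against F1 PNO and 0 to 2 in F2 IUO against F1 IUO. These counts are given without the share of all genes called in each omission. Each omission leaves 3 libraries in a group, and the cause of the changes of sign was not tested.

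In F1 IUO against F1 PNO, where 2 members were called, 1 was called with pseudocount 1, 0 with no filter beyond a value above 0, 0 with upper-quartile rescaling, 0 with all 24 libraries in 1 fit and 0 without the libraries above the choroid plexus limit. Among all genes, 23 of 17306 were called in the main fit and 7, 5, 3, 4 and 0 in these fits, in that order. Both entries were lower under each of these and passed an unadjusted p under 0.05. The filter at FPKM 1 and rescaling to the total of all other genes kept both calls, where 28 of 13692 and 52 of 17929 genes were called. Without a filter more genes were tested (21792 against 17306), and the unadjusted limma p also rose, for AY172581.7 from 1.58e-05 to 3.19e-05. The cause of these changes was not tested.

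With the replicate block, 0 members and 2 of all 17306 genes were called in F1 IUO against F1 PNO. Both entries again passed an unadjusted p under 0.05 there, and the block changed no other count of member calls. In the share of the protein genes in F2 SAL against F1 SAL, the difference of -2.903 had an exact sign-flip p of 0.125, the smallest that 4 pairs can give. The replicate numbers were not taken to pair the libraries: in no comparison did all 4 same-numbered pairs have a correlation of deviations above 0.1 (3 of 4 in F1 IUO against F1 PNO, at most 1 elsewhere). At most 5 of 8 libraries correlated best with their own number, again in F1 IUO against F1 PNO. These values do not settle whether the numbers pair the libraries of that comparison.

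Leaving out together the libraries with a choroid plexus sum above 3000, an alternative chosen after seeing the data, changed the mitochondrial share to 0.6995 in F2 IUO against F2 SAL (reversed) and 8.905 in F2 PNO against F2 SAL (exact permutation p 0.0286). In F1 the mitochondrial share moved from 0.906 to 4.91 for PNO against SAL and from -5.74 to -8.95 for IUO against PNO, and between generations from 0.841 to 1.98 for IUO and from 2.28 to 1.24 for PNO, with the same direction. The share of the AY172581 entries changed to 0.0026 in F1 IUO against F1 SAL and 0.0915 in F2 SAL against F1 SAL, both reversed, and to 1.57 in F2 PNO against F2 SAL (exact permutation p 0.0286), and the share of the protein genes in the last to 7.34 (exact permutation p 0.0286). The members higher at an unadjusted p under 0.05 rose from 0 to 15 of 37 in F1 PNO against F1 SAL and from 2 to 12 in F2 PNO against F2 SAL, and the cause of these changes was not tested. The depth of the libraries is unknown, so what it limits cannot be stated.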

Other observations

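AY172581.7 was compared with all genes outside the members after its high and low ranges had been seen. Over the 24 libraries, among 9044 genes with a mean FPKM of at least 5, its log2 FPKM had the highest Pearson r with Fam216a (0.805) and Ndufs4 (0.784), and the lowest with Sgsm2 (-0.828) and Agap2 (-0.802). With the group means removed these were 0.578, 0.653, -0.677 and -0.591. These values are a description and carry no test.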
